A study of Mus musculus with 6 samples.

Results

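The genes described here are 6 keratins of activated keratinocytes, the outer root sheath, the companion layer and the follicle opening: Krt6a, Krt6b, Krt16, Krt17, Krt75 and Krt79. They were taken by symbol from the 54146 Ensembl gene IDs in the files, and all 6 were found and passed the filter on low values. Their identifiers are ENSMUSG00000058354 (Krt6a), ENSMUSG00000023041 (Krt6b), ENSMUSG00000053797 (Krt16), ENSMUSG00000035557 (Krt17), ENSMUSG00000022986 (Krt75) and ENSMUSG00000061397 (Krt79). The study measured skin RNA of mice by sequencing, with 3 libraries from animals exposed to chronic restraint stress (CRS, repeated confinement of the animal) and 3 from unstressed controls (CON), all taken after 12 weeks. The labels give no strain, genotype, sex, age or body site. The files hold FPKM, fragments scaled by exon length and library size, with a recovered depth of 13.3 to 25.7 M fragments per library.

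Keratins form filaments only as pairs of a type I and a type II protein, and the filaments are anchored at desmosomes. Krt6a, Krt6b, Krt75 and Krt79 are type II, while Krt16 and Krt17 are type I. Krt6a, Krt6b, Krt16 and Krt17 are present in the follicle in resting skin and are known to be induced in the epidermis between follicles after wounding and in inflammation. Krt75 marks the companion layer, a single sheet of cells between the outer and inner root sheaths, and Krt79 marks cells that line the follicle opening.

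CON replicate 1 stood apart from the other libraries. Its 10 skeletal muscle markers summed to 14600 FPKM against 494 to 2860 FPKM in the others, and its mitochondrial transcripts made up 15.3% of fragments, against 2.501% to 4.19%. All keratins summed to 8065 FPKM there and to 18061 to 26990 FPKM elsewhere. Keratinocyte markers were present in every library, at 2509 to 2734 FPKM in CON and 2602 to 3516 FPKM in CRS. Xist, the transcript of the inactive X chromosome, was at 2.80 FPKM in CON replicate 1 and at 0.0221 to 0.168 FPKM in the others, while the Y-linked gene Ddx3y was at 8.68 to 32.7 FPKM in all 6, so whether that library is 1 mouse is in doubt. CRS replicate 2 also differed from the other libraries. Its FPKM values summed to 358190, against 456513 to 609908 in the others. It had 24637 genes at 0, against 18419 to 22919, and it held the highest values of Krt16 and Krt79. In whole skin, fewer cells of a type and less RNA per cell cannot be told apart.

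Krt6a and Krt6b lie next to each other in the type II cluster on chromosome 15, and their coding sequences are nearly copies. Of 1662 aligned bases 1625 were identical, 97.8%, and the longest identical stretch ran over 280 bases. Their most different coding window of 60 bases covers coding bases 817 to 876 in exon 4 of 9, counted from the A of the start codon. It is shown 5′ to 3′ because fragments can be told apart only where the sequences differ. The 10 differing bases are in capitals (GENCODE M21 transcripts).
Krt6a: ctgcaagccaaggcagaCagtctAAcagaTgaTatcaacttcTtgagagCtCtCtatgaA
Krt6b: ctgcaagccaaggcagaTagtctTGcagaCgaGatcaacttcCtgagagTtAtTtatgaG
Of the 50-base words in the Krt6b transcript, 50.1% also occurred in transcripts of other genes, and of the 100-base words 30.6%. For Krt6a these shares were 62.0% and 47.5%, and the genes sharing them included each other, Krt5 and several predicted copies. The labels state neither read length nor how shared reads were treated, so the split of fragments between Krt6a and Krt6b is uncertain.

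Krt16 has a similar partner in Krt14, the abundant type I keratin of basal cells, which lies next to it on chromosome 11. Their coding sequences were 85.5% identical, with a longest identical stretch of 134 bases, and 37.6% of the 50-base words of Krt16 occurred in other genes (Krt14, Krt17 and a predicted gene). Their most different window, in exon 5 of 8, covers coding bases 949 to 1008 of Krt16 and 973 to 1032 of Krt14, and its 24 differing bases are in capitals. It is shown because Krt14 was far more abundant than Krt16.
Krt16: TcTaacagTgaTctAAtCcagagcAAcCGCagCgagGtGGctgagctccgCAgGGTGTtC
Krt14: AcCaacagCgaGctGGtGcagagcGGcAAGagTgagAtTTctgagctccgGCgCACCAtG
Krt17 shared 3.99% of its 50-base words, Krt75 shared 2.49% and Krt79 shared 0%. For Krt79 only the coding transcript of 2097 bases was searched, while its FPKM rests on 4753 merged exon bases.

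The levels of the 6 genes spanned more than 2 orders of magnitude. Krt17 was the most abundant, with a mean of 1138 FPKM over the 6 libraries, the fourth highest of the 51 keratin genes tested. Krt75 followed at 297 FPKM and Krt6a at 123 FPKM, then Krt79 at 53.0 FPKM, Krt16 at 33.7 FPKM and Krt6b at 4.22 FPKM. Each stood above the next in all 6 libraries except Krt79 and Krt16, where the order held in 5. The place of Krt79 depends on the length used: its merged exons span 4753 bases with retained introns, and its coding transcript spans 2097 bases, on which its mean would be 120.1 FPKM beside 130.7 FPKM for Krt6a. Together the 6 genes gave 8.24% to 12.7% of the keratin FPKM of a library in CON and 6.50% to 8.66% in CRS, with overlap. The means were 10.1% in CON, 8.82% without CON replicate 1, and 7.65% in CRS.

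In the comparison of stressed with control skin, Krt6a, Krt16 and Krt79 had higher FPKM in every CRS library than in any CON library. As a share of a library's summed FPKM, the groups overlapped for all 3. For Krt6a, CON replicate 3 with 117.9 of 456513 exceeded CRS replicate 3 with 148.8 of 609908. For Krt16, CON replicate 3 with 35.4 exceeded CRS replicate 1 with 40.2 of 584926. For Krt79, CON replicate 2 with 45.1 of 491078 exceeded CRS replicate 3 with 50.3. All 6 genes had a log2 fold change above 0, from 0.31 for Krt17 to 1.11 for Krt79. None of the 6 passed the limma test adjusted over all genes, where 0 of 28389 genes passed (0.0%), nor did any with voom on recovered fragments. At an unadjusted p under 0.05 limma counted 261 genes higher and 462 lower, 723 in all. That count rests on single libraries: it was 254 without CON replicate 1, 374 without CRS replicate 3, 420 without CON replicate 3, 1097 without CRS replicate 1 and 4876 without CRS replicate 2. Krt79 alone of the 6 was among the 261, which are 0.919% of all genes. Its unadjusted p rose above 0.05 without CON replicate 3 (0.0758) and under TPM scaling (0.0662), while that of Krt16, 0.0629, came under 0.05 without CON replicate 3 (0.0237), under median-ratio scaling (0.0404), with array weights (0.0405) and with voom (0.0488). The median over all genes was -0.20 on the log2 scale and moved to 0.011 under median-ratio scaling. Fold changes relative to it were 0.72 for Krt6a, 1.06 for Krt6b, 1.25 for Krt16, 0.51 for Krt17, 0.80 for Krt75 and 1.30 for Krt79. In FPKM the groups did not overlap, with CRS higher, for 3 of the 6 members and for 1.65% of all genes tested. Without CON replicate 1 this held for 3 members and 2.78% of all genes.

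**Figure D1:**
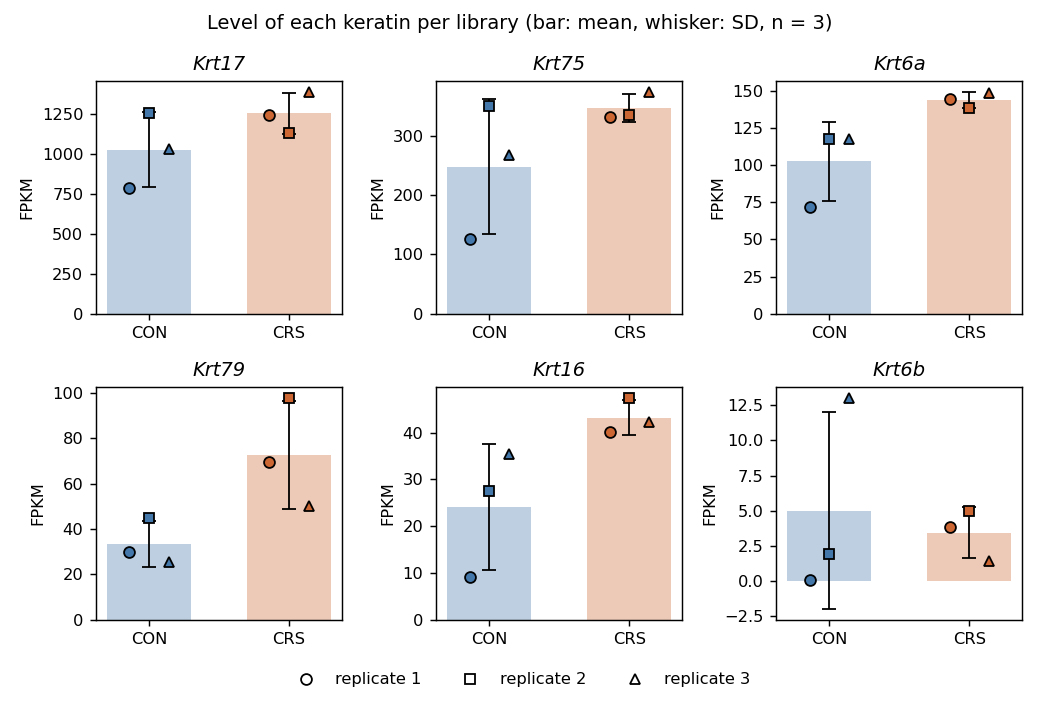
FPKM (linear axis) of each keratin in the 3 CON and 3 CRS libraries; symbols are replicates, bars the group means and whiskers the SD (n = 3). In FPKM, CRS lies above CON without overlap for Krt6a, Krt79 and Krt16, and Krt6b ranges from 0.0947 to 13.03 FPKM within CON.

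Krt16, which pairs with the Krt6 proteins, had control values of 9.13, 27.6 and 35.4 FPKM (replicates 1 to 3) and stressed values of 40.2, 47.4 and 42.2 FPKM. The CRS values lay close together and the CON values were spread, CON replicate 1 being lowest. The means were 24.1 ± 13.5 and 43.2 ± 3.71 FPKM (SD, n = 3). The log2 fold change was 1.05 (SE 0.49, 95% interval -0.071 to 2.17, limma adjusted p = 0.9999). It was 0.46 without CON replicate 1. The exact two-sided permutation p was 0.1, the smallest that 3 against 3 values allow. The lowest CRS value was 1.13 times the highest CON value.

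Krt79, of the follicle opening, had 29.97, 45.1 and 25.3 FPKM in the control libraries and 69.6, 97.7 and 50.3 FPKM in the stressed ones. All CRS libraries were above all CON libraries, and here CON replicate 3, not CON replicate 1, was lowest. The means were 33.5 ± 10.3 and 72.5 ± 23.9 FPKM. The log2 fold change of 1.11 (SE 0.37, 95% interval 0.25 to 1.96) had an unadjusted p of 0.0169 and a limma adjusted p of 0.9999. With each library left out in turn it stayed between 0.86 and 1.34, and without CON replicate 1 it was 1.05. With array weights it was 0.69.

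Krt6a, the main Krt6 gene by level, measured 71.8, 117.7 and 117.9 FPKM in the controls and 144, 138 and 149 FPKM under stress. CON replicates 2 and 3 were nearly equal, and every CRS value lay above them. The means were 102.5 ± 26.6 and 143.8 ± 5.39 FPKM. The log2 fold change was 0.52 (SE 0.35, 95% interval -0.27 to 1.32, limma adjusted p = 0.9999; exact permutation p = 0.1). Without CON replicate 1 it was 0.29.

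Krt6b differed from its near copy in being scarce and uneven. Its control values were 0.0947, 1.91 and 13.03 FPKM, and its stressed values 3.86, 4.99 and 1.44 FPKM. The highest and the lowest value were both controls, 138-fold apart, and the groups overlapped. In CON replicate 1 only 4 fragments were assigned to Krt6b (exact 95% Poisson interval 0.0258 to 0.242 FPKM, counting error only), beside 3282 assigned to Krt6a, a share of 0.122%. In CON replicate 3 that share was 10.2%, from 387 fragments beside 3788, and in CRS it was 0.893% to 3.34%. The log2 fold change was 0.87 (SE 1.31, 95% interval -2.12 to 3.85, limma adjusted p = 0.9999), while the mean FPKM went the other way, 5.01 ± 7.003 in CON and 3.43 ± 1.82 in CRS. Without CON replicate 1 the log2 value was -0.71 and without CON replicate 3 it was 2.33, so a direction was not established.

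Krt17, a keratin of the follicle and of activated epidermis, reached 787, 1257 and 1028 FPKM in the control libraries and 1239, 1132 and 1386 FPKM in the CRS libraries. CON replicate 2 lay within the range of the CRS libraries. The log2 fold change was 0.31 (SE 0.53, 95% interval -0.91 to 1.53, limma adjusted p = 0.9999; exact permutation p = 0.3), and it was 0.13 without CON replicate 1. Krt75, of the companion layer, gave 126, 349.7 and 268 FPKM in the controls and 331, 335 and 373 FPKM under stress. The CRS libraries again lay close together, and CON replicate 2 was above 2 of them. Its log2 fold change was 0.60 (SE 0.47, 95% interval -0.48 to 1.68, limma adjusted p = 0.9999), and it was 0.17 without CON replicate 1.

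**Figure D2:**
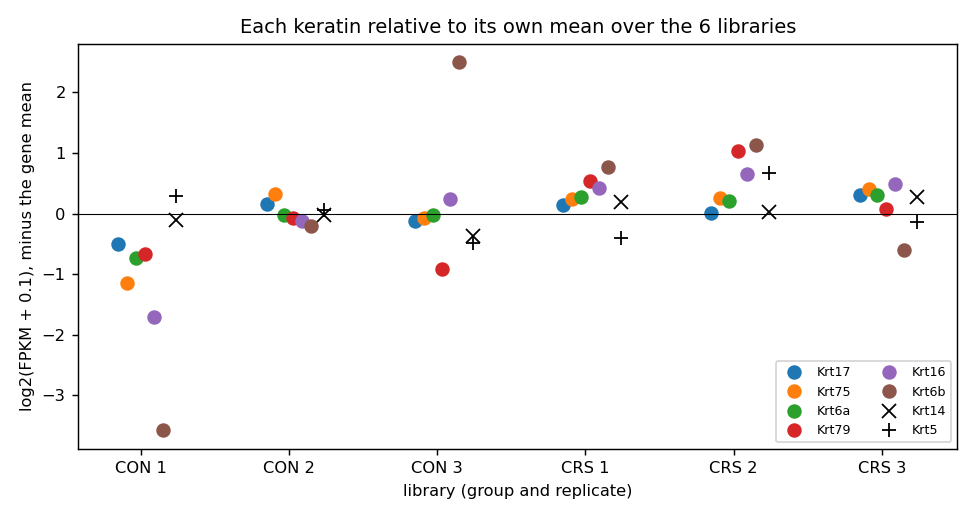
Level of each keratin in each library as log2(FPKM + 0.1) minus that gene's mean over the 6 libraries, with the basal keratins Krt5 and Krt14 as crosses. CON replicate 1 is low for the 6 stress and companion layer keratins, at -0.51 to -3.58, while Krt5 and Krt14 are at 0.29 and -0.10 there.

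Seen by library, CON replicate 1 held the lowest value of 5 of the 6 genes, and CON replicate 3 that of Krt79. Each CRS library held a value among the upper 3 for 5 of the 6 genes. In FPKM, the spread within CRS was small for several genes. The coefficient of variation was 3.75% for Krt6a, 6.81% for Krt75, 8.58% for Krt16 and 10.1% for Krt17. In CON it was 25.9%, 45.6%, 56.2% and 22.9% for the same genes, and over CON replicates 2 and 3 alone 0.102%, 18.7%, 17.5% and 14.1%, so for Krt6a the order turned without CON replicate 1. Krt79 varied alike in both groups, at 30.9% in CON and 32.9% in CRS. These spreads are of FPKM as deposited. For Krt6a, CRS replicate 2 had 138 FPKM of a library sum of 358190. CRS replicates 1 and 3 had 144 of 584926 and 149 of 609908. The median-ratio factor was 1.23 for CRS replicate 2, beside 0.823 and 0.796 for CRS replicates 1 and 3. The small spread in CRS therefore depends on the scaling. Skeletal muscle markers, mitochondrial transcripts and the doubt about the source of the library move with the low values of CON replicate 1, and their part in the result was not tested. With that library left out, the log2 fold change was 0.46 in place of 1.05 for Krt16, 0.29 in place of 0.52 for Krt6a, 0.17 in place of 0.60 for Krt75, 0.13 in place of 0.31 for Krt17 and 1.05 in place of 1.11 for Krt79. Each library was also rescaled without mitochondrial genes and the muscle markers. The log2 fold change was then 0.96 for Krt16, 0.43 for Krt6a, 0.51 for Krt75, 0.22 for Krt17, 0.82 for Krt6b and 1.01 for Krt79.

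**Figure D3:**
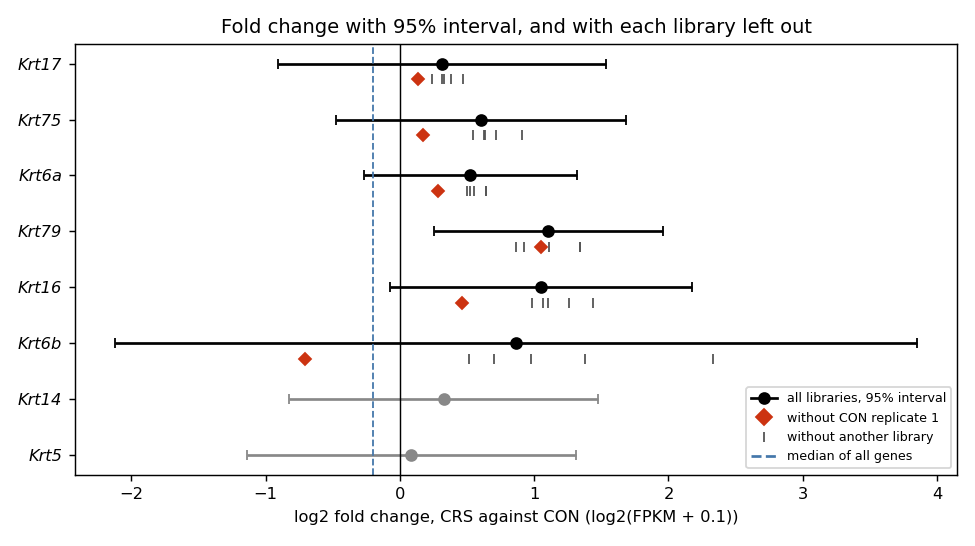
Log2 fold change (CRS against CON, log2(FPKM + 0.1)) with its 95% interval for each gene, and below it the value with each library left out; the diamond leaves out CON replicate 1 and the dashed line is the median of all genes, -0.20. Without CON replicate 1 Krt6b turns to -0.71 and Krt79 stays at 1.05; Krt14 and Krt5 are shown for comparison, with no value for libraries left out.

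Krt5 and Krt14, the basal pair that the outer root sheath also makes, served as a measure of keratinocyte RNA. Krt5 gave 932, 796 and 545 FPKM in the controls and 572, 1214 and 693 FPKM under stress, with overlap. Krt14 gave 927, 979.6 and 769 FPKM against 1132, 1017 and 1198 FPKM, without overlap, with a log2 fold change of 0.33 (SE 0.50). The summed 6 genes stood at 0.551 to 1.13 of the summed Krt5 and Krt14 in CON and at 0.787 to 1.07 in CRS, so this ratio overlapped between groups. Its mean log2 difference was 0.17, and -0.15 without CON replicate 1. Against Krt5 alone, Krt79 was at 0.0322 to 0.0566 in CON and 0.0726 to 0.122 in CRS, which did not overlap. Against Krt14, Krt79 did overlap between groups. CRS replicate 3, with 50.3 FPKM of Krt79 beside 1198 of Krt14, fell below CON replicate 2, with 45.1 beside 979.6. Krt6a against Krt5 was at 0.0771 to 0.216 in CON and 0.114 to 0.252 in CRS, which overlapped.

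Because type II and type I proteins pair, the members of each type were also compared as sums. These sums leave out Krt5 and Krt14, with means of 792 and 1004 FPKM, and join genes of different follicle layers. The type I sum is mostly Krt17, at 1138 FPKM beside 33.7 FPKM for Krt16. The ratio is therefore not a measure of pairing. The summed FPKM of the type II members divided by that of the type I members was 0.286, 0.401 and 0.399 in CON and 0.429, 0.488 and 0.402 in CRS. The groups did not overlap, but CRS replicate 3 at 0.402 was nearly level with CON replicate 2 at 0.401. The ratio is of summed RNA, not protein. Its type II sum includes Krt79, itself without overlap, whose level depends on the exon length used. Krt6a relative to Krt16 was 3.33 to 7.87 in CON and 2.92 to 3.59 in CRS, and the highest ratio was in CON replicate 1. Krt6a relative to Krt17 was steadier, at 0.0912 to 0.115 and 0.107 to 0.122.

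Most keratin genes of the skin had higher values in CRS, and the fold changes of the 6 genes lay within the range of the family. Of the 45 other keratin genes tested, 39 had a log2 fold change above 0, with a median of 0.66, beside 6 of 6 with a median of 0.73 here and 32.2% of all genes tested. Without CON replicate 1 it was 34 of the 45 above 0, with a median of 0.34, and 5 of the 6 with a median of 0.23. The groups did not overlap, with CRS higher, for 11 of those 45 and for 1.65% of all genes. By fold change among the 51 keratins, Krt79 ranked 9, Krt16 14, Krt6b 20, Krt75 27, Krt6a 29 and Krt17 39. Hair shaft markers were at 1930 to 6262 FPKM in CON and 5892 to 11310 FPKM in CRS, with CON replicate 1 lowest, and inner root sheath markers at 2930 to 12894 and 11795 to 18746 FPKM, where CON replicate 1 gave the 2930 and the other CON libraries 10283 and 12894. Sebaceous gland markers were at 171 to 321 and 236 to 415 FPKM, with 7 of 8 above 0 and 3 of them without overlap (Awat1, Dgat2l6 and Far2). Proliferation markers were lower, at 133 to 162 FPKM in CON and 71.7 to 106.6 FPKM in CRS, with 8 of 8 below 0 and 5 without overlap. Melanocyte markers were at 263 to 298 and 176 to 204 FPKM, with 6 of 6 below 0 and 3 without overlap (Dct, Mc1r and Mlana). Of all genes tested, 1.65% were higher and 5.19% lower in CRS without overlap. These marker groups moved together with the 6 keratins or against them, and their part in the result was not tested.

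**Figure D4:**
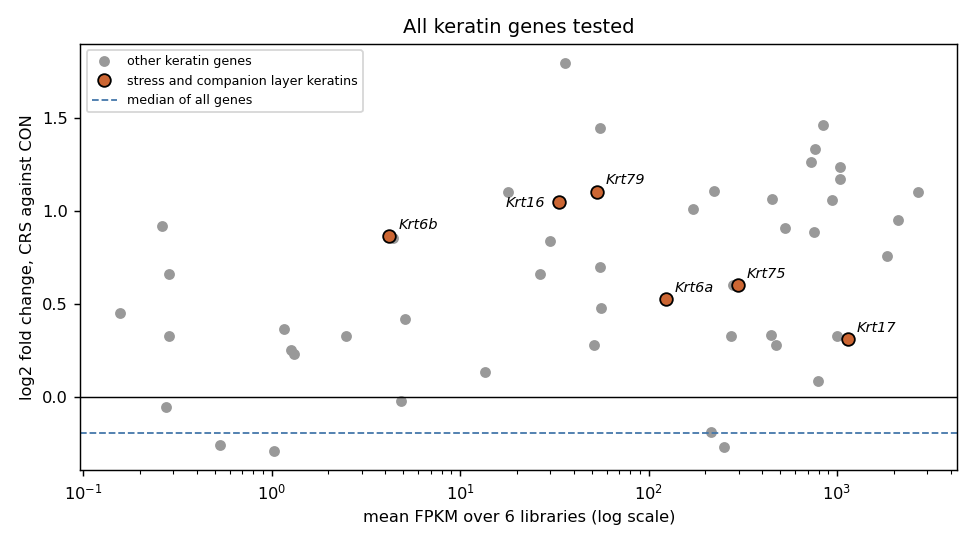
Log2 fold change (CRS against CON) of the 51 keratin genes tested against their mean FPKM (log axis), with the 6 stress and companion layer keratins named. They lie among the other keratins, of which 39 of 45 are above 0.

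Genomic neighbours had unlike point estimates, and differences between them were not tested. Krt16 at 1.05 (SE 0.49) lies between Krt14 at 0.33 (SE 0.50) and Krt17 at 0.31 (SE 0.53) on the log2 scale. Krt42, beyond Krt17, was at 0.23 (SE 0.49). Krt6a at 0.52 lies between Krt6b and Krt5, which was at 0.084 (SE 0.54). Next to Krt79 are Krt78, a keratin at 2.86 to 8.95 FPKM with a log2 fold change of 0.42 (SE 0.46), and Krt4, at most 0.242 FPKM. Next to Krt75 is Krt90, at 0.85 (SE 0.39).

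By library profile, the gene nearest to Krt16 among 11666 genes of at least 1 FPKM was Vsig8, an immunoglobulin domain gene, with a root mean square difference of 0.057 log2 units over the 6 libraries, followed by Tmem229b (0.11) and Serpinb11 (0.13). For Krt79 it was the retinol dehydrogenase gene Rdh1 (0.11), then Plet1 (0.18), a surface protein of the upper follicle, and Bglap3 (0.19). Plet1 gave 6.66, 13.9 and 8.39 FPKM in the controls and 19.8, 28.2 and 14.3 FPKM under stress. Krt6a was nearest to Bcas1 (0.045), Cdr2 (0.051) and Aspg (0.061). Krt17 was nearest to the folate transporter gene Slc46a1 (0.029), Csrp1 (0.054) and Eif2b2 (0.067), and Krt75 to Ankrd22 (0.095), Gdpd1 (0.099) and Slc9a3r1 (0.12). Krt6b had no close match, its nearest being Mir7078 (0.51), Col1a1 (0.85) and Lypd5 (1.02). Among the 6 genes themselves, Krt6a and Krt17 were the closest pair (0.16), then Krt6a and Krt75 (0.23), while Krt6a and Krt6b were 1.65 apart. These differences describe the 6 libraries, and whether such matches exceed chance was not tested.

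Genes that accompany stress keratins in activated keratinocytes had mostly higher values in CRS: of 25 tested, 24 had a log2 fold change above 0 and 1 below, with a median of 0.87, where 32.2% of all genes were above 0. Without CON replicate 1, the lowest library for the 3 genes named next, 21 were above 0 and the median was 0.46, where 34.4% of all genes were above 0. Lce3b, a late envelope gene, had a log2 fold change of 1.53 (SE 0.62), from 1.19 ± 0.54 to 4.10 ± 2.95 FPKM. The alarmin gene S100a7a was at 1.29 (SE 0.57) and Lce3a at 1.67 (SE 0.77), and the groups overlapped for all 3. Of 20 genes of the outer root sheath, companion layer and follicle opening, 9 were above 0 and 11 below, with a median of -0.063. Here Cst6, an inhibitor of cysteine proteases, was at 1.77 (SE 0.60), Plet1 at 1.11 (SE 0.39) and the defensin gene Defb6 at 1.56 (SE 0.87), and of these 3 Plet1 did not overlap between groups. Over the 20 genes 3 were higher without overlap (Plet1, Krt14 and Gata6) and 1 lower (Sostdc1), where 1.65% and 5.19% of all genes were.

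Of the ligands known to induce stress keratins, 9 of 21 tested were above 0 and 12 below, with a median of -0.26, and 4 were above 0 without CON replicate 1. Shh, the follicle growth signal, was at -1.22 (SE 0.54), Fgf7, the keratinocyte growth factor, at -0.93 (SE 0.49), and Il1a at 0.85 (SE 0.45). Il20, a cytokine that acts on keratinocytes, was the one ligand with an unadjusted p under 0.05 and was named after its values were seen. Its control values were 0.223, 0.338 and 0.0634 FPKM and its stressed values 1.23, 1.31 and 1.81 FPKM, which did not overlap. Its log2 fold change was 2.42 (SE 0.57, unadjusted p = 0.00245, limma adjusted p = 0.9999). These rest on 1 to 8 fragments per control library and 28 to 54 per stressed library. Of the 22 receptors of these ligands, 6 were above 0 and 16 below, with a median of -0.17, close to that of all genes. Il10rb was at -0.42 (SE 0.32), Ifngr2 at -0.38 (SE 0.32) and Smo at -0.48 (SE 0.42).

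Of 30 transcription factors known from stress keratin genes, 7 were above 0 and 23 below, with a median of -0.29, near the 32.2% above 0 and the median of -0.20 of all genes. Cebpb, a factor of keratinocyte differentiation, gave 23.5, 12.6 and 42.2 FPKM in the controls and 12.1, 4.83 and 10.9 FPKM under stress, a log2 fold change of -1.42 (SE 0.52) with an unadjusted p of 0.0244. It was the 1 factor of the 30 that was lower at an unadjusted p under 0.05, where 1.63% of all genes were, while without overlap 3 of the 30 were lower, where 5.19% of all genes were, and 2 higher (Fos and Gata6), where 1.65% were. Its related gene Cebpd was at -0.86 (SE 0.44). Of 19 filament anchors, 15 were above 0 and 4 below, with a median of 0.42, and 14 were above 0 without CON replicate 1, with a median of 0.30. The desmosomal cadherin gene Dsc2 gave 7.90, 32.6 and 23.1 FPKM in the controls and 48.5, 60.7 and 46.9 FPKM under stress, a log2 fold change of 1.51 (SE 0.50). Periplakin, Ppl, was at 0.80 (SE 0.44) and the plakophilin gene Pkp1 at 0.67 (SE 0.42), both with overlap. Of 13 other epithelial keratins, 11 were above 0 and 2 below (median 0.33), with Krt80 at 0.84 (SE 0.61), Krt1 at 0.70 (SE 0.56) and Krt10 at 0.60 (SE 0.51). Over these lists 0 genes passed limma's adjusted test, and those at an unadjusted p under 0.05 were Lce3b, Cst6, Plet1, Il20 and Dsc2, all higher, and Cebpb, lower.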

How the data were processed

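The deposited values were FPKM made by the authors, 1 file per library; the submitters' processing notes name HISAT2 and GRCm39. Neither they nor the labels name the counting program, annotation or read length. GENCODE M21, on the older build GRCm38, supplied symbols and merged exon lengths for 54079 of 54146 IDs, so no coordinates are given. FPKM times length fell within 0.05 of whole fragments for 98.1% to 98.3% of values up to 100, which gave the depth. Each library was taken as 1 mouse, although for CON replicate 1 this is in doubt.

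Genes averaging 0.1 FPKM or more were tested as log2(FPKM + 0.1) with limma 3.58.1 (R 4.3.3), with a mean-variance trend, two-sided, Benjamini-Hochberg adjusted over 28389 genes at 0.05. The added value understates changes of low genes. Exact permutation tests used scipy 1.17.1 and alignments Biopython 1.88. The fit was tested on simulated data.

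The 6 members and all gene lists were chosen with earlier results of these data known. Named were the members, the 3 genes of lowest unadjusted p in each list with a mean of at least 1 FPKM, the 3 nearest profiles of each member and the adjacent coding genes. One gene that this rule selected is not reported here. Alternatives covered scaling, pseudocount, filter, variance model, array weights, a replicate block and libraries left out, and voom on recovered fragments and the list counts and spreads without CON replicate 1 were chosen after seeing the data.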

Additional observations from a re-analysis of the deposited data

How the results depend on the processing

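Under all 20 alternatives 0 genes passed the adjusted test. The values of Krt6a, Krt16, Krt17, Krt75 and Krt79 kept their direction under all 19 alternatives each, and none passed: the lowest adjusted p was 0.131, for Krt79 with array weights. Krt6b turned to -0.24 with array weights, to -0.71 without CON replicate 1 and to -1.06 with CON replicate 1 and CRS replicate 2 both left out; the cause was not tested. With each library left out in turn, the log2 fold change was 0.29 to 0.64 for Krt6a, -0.71 to 2.33 for Krt6b, 0.46 to 1.43 for Krt16, 0.13 to 0.47 for Krt17, 0.17 to 0.91 for Krt75 and 0.86 to 1.34 for Krt79. The ratio of type II to type I members stayed between 0.13 and 0.37, and that of the members to Krt5 and Krt14 between -0.15 and 0.37 (log2, CRS against CON). With voom on recovered fragments Krt16 was at 1.07 and Krt79 at 1.11. Over all 19 alternatives the log2 fold change was 0.29 to 0.76 for Krt6a, -1.06 to 2.33 for Krt6b and 0.39 to 1.43 for Krt16. For Krt17 it was 0.13 to 0.55, for Krt75 0.17 to 0.91 and for Krt79 0.69 to 1.34. Same-numbered libraries did not deviate together (correlation across genes -0.12, 0.062 and 0.087), and with the replicate block 0 genes passed and the unadjusted p was 0.0581 for Krt16 and 0.0233 for Krt79. The number of genes at an unadjusted p under 0.05, 723, ran from 254 to 4876 with each library left out in turn and was 7634 with array weights and 3594 with CON replicate 1 and CRS replicate 2 both left out. The unadjusted p of Krt79 rose above 0.05 in 3 alternatives, namely without CON replicate 3 (0.0758), under TPM scaling (0.0662) and with CON replicate 1 and CRS replicate 2 both left out (0.0615), and that of Krt16 came under 0.05 in 4: without CON replicate 3 (0.0237), under median-ratio scaling (0.0404), with array weights (0.0405) and with voom (0.0488). Depth limits low genes such as Il20, with 1 to 8 fragments per control library. The spread of Krt6b within CON exceeded counting error, its exact 95% Poisson intervals being 0.0258 to 0.242 FPKM in CON replicate 1 and 11.8 to 14.4 FPKM in CON replicate 3.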
